A study of Mus musculus with 6 samples.

Results

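The adrenomedullin genes described here are 7 of the 36727 genes in a table of ovarian RNA counts: the peptide ligands Adm and Adm2, the receptors Calcrl and Calcr, and the receptor activity-modifying proteins Ramp1, Ramp2 and Ramp3. They were taken by name, and the set was selected on measured values, the counts of Ramp3, which were lower in each of the 3 libraries of high litter size. That difference is therefore given as a description, with no test. The 6 libraries came from ovary of adult female F4 inbred Swiss albino mice, 135 to 140 days old and staged by estrous phase, 3 labelled high litter size (replicates 1, 3 and 4) and 3 labelled low litter size (replicates 1, 2 and 5). Strain, sex, age and tissue label are shared by both groups, and litter size is the single labelled difference. The labels give neither the litter sizes that define the groups nor whether each library is a separate animal, so p-values here reflect only how much these samples vary, and that variation may be technical.

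Adrenomedullin is a vasodilator peptide of the calcitonin family that vascular and many other cells secrete, and it acts mainly on endothelium and smooth muscle. Its receptor is built from the G protein-coupled receptor Calcrl (calcitonin receptor-like receptor) and a single-pass RAMP: Ramp1 with Calcrl gives a receptor for calcitonin gene-related peptide (CGRP), while Ramp2 or Ramp3 with Calcrl gives adrenomedullin receptors. Calcr, the calcitonin receptor, pairs with the same RAMPs to form amylin receptors, and the receptors signal largely through Gs and cyclic AMP. In mice, loss of Adm, Calcrl or Ramp2 is lethal before birth with vascular and lymphatic defects, whereas Ramp3 is dispensable for survival and its uterine expression is raised by oestrogen.

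The sequence just upstream of a gene's first annotated start was read for the RAMP that set the groups apart, Ramp3 (chr11:6658283-6658520, plus strand), and, for contrast, for Ramp1 (chr1:91179572-91179821, plus strand), the RAMP that varied most within the high group. Both are RefSeq sequence on GRCm38.p6, 5′ to 3′, and capitals mark matches, on either strand, to any of the 5 motifs searched.
Ramp3: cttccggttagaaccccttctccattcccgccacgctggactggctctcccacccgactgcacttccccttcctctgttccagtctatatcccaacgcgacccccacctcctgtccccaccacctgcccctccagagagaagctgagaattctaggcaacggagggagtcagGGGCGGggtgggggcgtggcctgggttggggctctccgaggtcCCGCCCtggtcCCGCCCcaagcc
Ramp1: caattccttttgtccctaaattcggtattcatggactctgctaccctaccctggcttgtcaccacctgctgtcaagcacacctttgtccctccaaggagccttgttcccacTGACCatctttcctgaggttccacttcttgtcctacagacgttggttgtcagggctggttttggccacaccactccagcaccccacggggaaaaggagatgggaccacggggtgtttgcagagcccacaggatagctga
The search used the oestrogen response element half-site, GGTCA. It also used the hypoxia response element core, ACGTG, and the core of the cyclic AMP response element, spelled TGACGT. The last motifs were the TATA box, here TATAAA, and the GC box of Sp1 family factors, here GGGCGG. No match in these windows overlapped another. The 238 bases of Ramp3 held 3 matches to the GC box and none to the other motifs, and 31.0% of 32851 RefSeq windows cut to that length held a GC box. The 250 bases of Ramp1 held 1 match to the oestrogen half-site, and 35.2% of windows of that length held at least 1. GC content was 66.0% in the Ramp3 window, against a median of 52.1% over all windows of that length. Of the 7 genes, 6 had a window in the RefSeq table, and Ramp2 had none. These matches describe letters in a window and were not set against expression.

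Total estimated counts ran from 17620903 to 24758222 per library. Levels are given as CPM, counts divided by the TMM-scaled library total on the usual CPM scale. Values per library follow the order of replicates 1, 3 and 4 for high litter size and 1, 2 and 5 for low litter size. The labelled tissue did not show evenly in the libraries: the summed level of 7 oocyte markers was 1.28, 3.43 and 67.4 CPM at high litter size and 13.7, 2.82 and 46.0 CPM at low litter size, and Zp2 and Zp3, which encode egg coat proteins, had 0 counts in high replicate 1 and low replicate 2. The granulosa cell gene Inha had 1.63, 2.12 and 199 CPM at high litter size and 182, 1.22 and 109.6 CPM at low litter size. Both groups thus held libraries with and without clear levels of these ovarian markers. Over all 16455 genes fitted with edgeR's quasi-likelihood test, 1 passed an adjusted p of 0.05 (0.00608%).

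Among the 7 genes, only Ramp3 separated the groups. Ramp3 (ENSMUSG00000041046, chromosome 11 from 6658521 to 6677475 on GRCm38, protein-coding) had 6.68, 12.6 and 6.32 CPM at high litter size, against 70.2, 45.1 and 83.1 CPM at low litter size. The highest of the high libraries thus lay well below the lowest of the low libraries. The estimated counts behind these levels were 131, 202 and 126 at high litter size and 1217, 847 and 2136 at low litter size, and the lowest of them, 126, is far above the 3 counts taken as the floor. Mean Ramp3 was 8.53 ± 3.52 CPM over the high litter size libraries and 66.1 ± 19.3 CPM over the low litter size ones (SD, n = 3 per group), 7.75-fold higher in the low group by these means. The fitted log2 fold change, high minus low, was -2.96 (SE 0.38), given as a description with no test. Leaving out each library in turn gave -3.35 to -2.76, and its sign could not turn, since the gene was chosen for groups that do not overlap. In whole tissue, fewer cells that express a gene and less RNA per cell cannot be told apart. Groups that did not overlap, with the high group lower, were found for 10.8% of all genes fitted, and nothing is read from Ramp3's place among them because it was picked for that pattern. An antisense pseudogene, Gm11978, is annotated within Ramp3, and it had 0, 0 and 0 counts at high litter size and 9, 5 and 3 counts at low litter size. Without a stated strand, reads of both cannot be told apart by strand where they overlap.

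**Figure D1:**
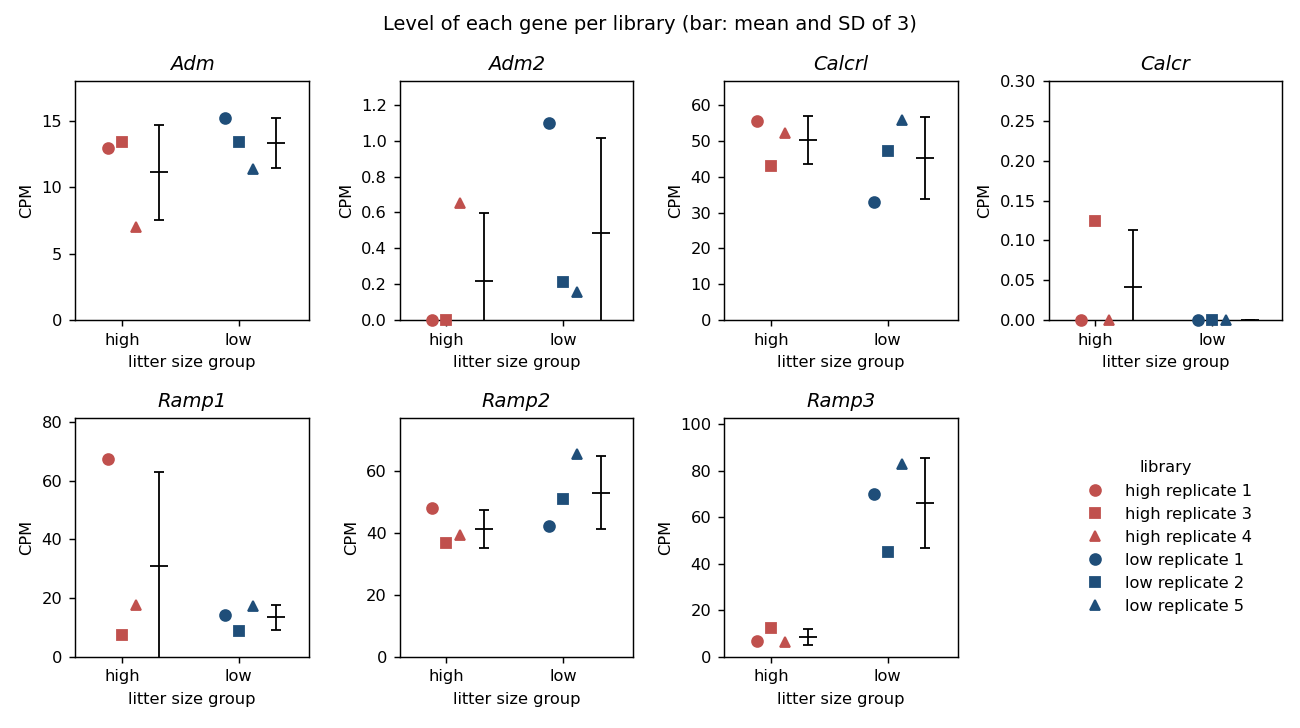
CPM of the 7 genes in each library, high litter size at left and low at right of each panel, with a black bar for the mean and SD of 3 libraries (bars are cut off at 0). Ramp3 lies between 6.32 and 12.6 CPM at high litter size, below the 45.1 to 83.1 CPM of the low libraries, while every other gene overlaps between the groups.

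Ramp2 (ENSMUSG00000001240, chromosome 11 from 101246028 to 101259546), which makes the main vascular adrenomedullin receptor with Calcrl, was measured at 48.3, 36.6 and 39.3 CPM at high litter size and at 42.4, 51.1 and 65.7 CPM at low litter size. The groups overlapped, since low replicate 1 lay below high replicate 1. Its log2 fold change was -0.36 (SE 0.23, edgeR adjusted p = 0.522). One annotated Ramp2 transcript runs on into the neighbouring gene Vps25 on the same strand, so their reads may be shared in part. Ramp1 (ENSMUSG00000034353, chromosome 1 from 91179822 to 91225196), the CGRP receptor partner, had 67.5, 7.54 and 17.7 CPM at high litter size, with high replicate 1 above every other library. At low litter size it had 14.2, 8.84 and 17.2 CPM, inside the range of the high group. Its mean was 30.9 ± 32.1 CPM over the high litter size libraries and 13.4 ± 4.24 CPM over the low litter size ones (SD, n = 3 per group), and the log2 fold change was 1.20 (SE 0.76, edgeR adjusted p = 0.52). Without high replicate 1 it was -0.085, so the positive value rests on that library. High replicate 1 also held 292 CPM of Hoxa10, against 29.8 to 98.2 CPM in the other 5 libraries. It held 205 CPM of Hoxa11, against 14.1 to 62.1 CPM in the other 5. Both are patterning genes of the uterus, named after their values were seen, from a list of 8 oviduct and uterus genes. The rest of that list, Emx2, Pax2, Pax8, Ovgp1, Wnt7a and Foxj1, did not have their highest level in high replicate 1. The part of Hoxa10 and Hoxa11 in the Ramp1 value was not tested.

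Calcrl (ENSMUSG00000059588, chromosome 2 from 84330626 to 84425411), the shared receptor of adrenomedullin and CGRP, differed between the groups by less than its error. It had 55.6, 42.9 and 52.1 CPM at high litter size and 33.0, 47.1 and 55.7 CPM at low litter size. The lowest and the highest values both belonged to low libraries, and its log2 fold change was 0.15 (SE 0.24, edgeR adjusted p = 0.817). Without low replicate 1 it was -0.033. Calcr (ENSMUSG00000023964, chromosome 6 from 3685680 to 3764714) was barely counted, with 2 counts in high replicate 3 and 0 in each of the other 5 libraries, where a count of 0 allows up to 3 counts, or 0.121 to 0.17 CPM of the unscaled total. At this depth a difference in Calcr was not detectable.

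Adm (ENSMUSG00000030790, chromosome 7 from 110627661 to 110629820), the main ligand, had 13.0, 13.4 and 7.03 CPM at high litter size and 15.2, 13.4 and 11.4 CPM at low litter size. High replicate 4 lay below the rest, and the other 2 high libraries lay among the low ones. Its log2 fold change was -0.26 (SE 0.32, edgeR adjusted p = 0.756), and -0.045 without high replicate 4. Adm is annotated with an antisense gene across its length, and without a stated strand the reads of both cannot be told apart. No counts are given for that antisense gene. Adm2 (intermedin, ENSMUSG00000054136, chromosome 15 from 89322720 to 89324731), a further ligand that acts on all 3 Calcrl receptors, had 0, 0 and 13 counts at high litter size and 19, 4 and 4 counts at low litter size. It was at 0.653 CPM in high replicate 4 and at 1.10 CPM in low replicate 1, and the exact Poisson intervals of these libraries, 0.381 to 1.23 and 0.649 to 1.68 CPM of the unscaled total, overlapped. Adm2 and Calcr did not reach the count filter and were not fitted, which left 5 of the 7 genes.

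Of the 4 fitted genes other than Ramp3, 0 passed with edgeR, where 0.00608% of all genes did. At an unadjusted p under 0.05 edgeR gave 0 of the 4, against 14.4% of all genes. DESeq2 called 0 of the 4 and limma voom 0 of the 4, against 6.18% and 0.0182% of all genes. By direction, DESeq2 called 4.08% of all genes lower and 2.1% higher at high litter size. Groups that did not overlap were found for 0 of the 4 and for 19.5% of all genes, 10.8% lower and 8.75% higher at high litter size. A p that misses the threshold does not show that these genes were equal between the groups: the SE of 0.76 for Ramp1 leaves room for a wide range of differences, that of 0.24 for Calcrl for a narrow one.

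**Figure D2:**
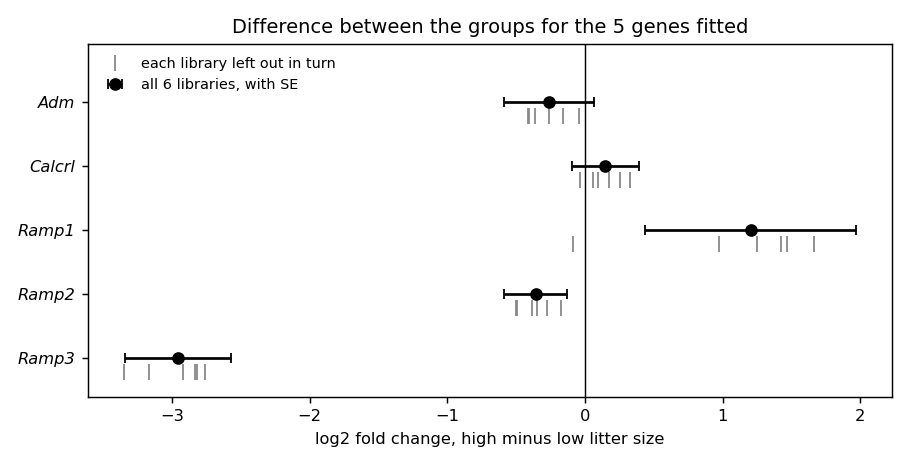
Log2 fold change, high minus low litter size, of the 5 genes fitted, with the SE as a bar around the black point and a grey tick for each fit that leaves out 1 library. Ramp1 and Calcrl cross 0 in 1 fit each. The range of Ramp3, -3.35 to -2.76, could not cross 0 because the gene was chosen for groups that do not overlap.

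To compare levels between genes, CPM was divided by the mean length of each gene's annotated transcripts. In the high group the order of these levels, in CPM per kb, was Ramp2 (47.6 ± 7.01), Ramp1 (23.8 ± 24.7), Calcrl (16.1 ± 2.11), Adm (12.6 ± 4.03) and Ramp3 (6.65 ± 2.74), with SD over n = 3. Ramp1 lay within its own spread of each of the other 4, and Calcrl and Adm lay within their spread of each other. In the low group the order was Ramp2 (61.0 ± 13.6), Ramp3 (51.5 ± 15.1), Adm (15.1 ± 2.17), Calcrl (14.5 ± 3.66) and Ramp1 (10.4 ± 3.27), with SD over n = 3. Ramp2 and Ramp3 lay within their spread of each other there, and so did Adm and Calcrl. Ramp3 had the lowest mean of these 5 genes at high litter size, but in high replicate 3 Ramp1 was lower (5.82 CPM per kb, against 9.81 for Ramp3). Over the union of exons, Ramp3 (6.18 ± 2.55 CPM per kb) and Adm (6.87 ± 2.20) lay within their spread of each other at high litter size (SD, n = 3). The order between Ramp2 and Ramp3 depends on the length used, and Ramp2 has 8 annotated transcripts. Over the union of exons, the low group had 47.9 ± 14.0 CPM per kb of Ramp3 and 16.1 ± 3.57 CPM per kb of Ramp2 (SD, n = 3).

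Within a library, ratios between genes do not depend on how libraries are scaled to each other. Ramp3 made up 4.62, 17.0 and 7.74% of the RAMP counts per length at high litter size, against 47.8, 34.9 and 42.2% at low litter size. As a share of plain RAMP counts these values were 5.46% (95% exact binomial interval 4.59 to 6.45), 22.2% (19.5 to 25.0) and 9.99% (8.39 to 11.8) at high litter size. In the low libraries they were 55.3% (53.2 to 57.4), 42.9% (40.7 to 45.1) and 50.1% (48.5 to 51.6). The intervals cover counting error only. The largest Ramp3 share of the high group, in high replicate 3, lay below the lowest of the low group, in low replicate 2. This gap follows largely from Ramp3 itself, for which the set was chosen, and is given with no test. The other RAMPs divided the rest unequally among the high libraries: Ramp2 made up 72.9 and 70.8% in high replicates 3 and 4, while in high replicate 1 Ramp1 reached 46.2%, near the 49.2% of Ramp2. The summed RAMP level was 122, 56.8 and 63.3 CPM at high litter size and 127, 105 and 166 CPM at low litter size, and the groups overlapped.

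**Figure D3:**
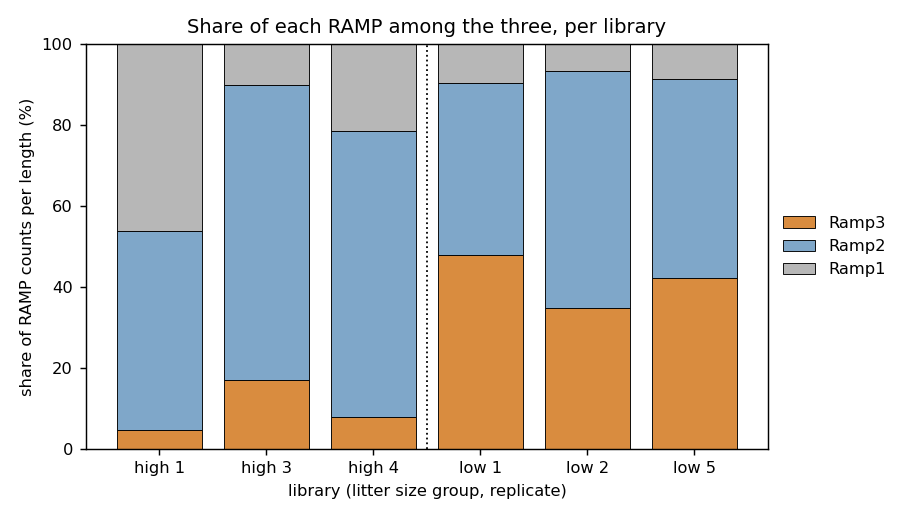
Share of Ramp3, Ramp2 and Ramp1 among the RAMP counts per mean transcript length in each library, in percent, with the high litter size libraries left of the dotted line and the low ones right of it. Ramp3 takes 4.62 to 17.0% at high litter size and 34.9 to 47.8% at low litter size. This gap follows largely from the choice of Ramp3.

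Relative to its receptor, Ramp3 had 0.12, 0.294 and 0.121 counts per Calcrl count at high litter size, against 2.12, 0.958 and 1.49 at low litter size. All 4 ratios that pair Ramp3 with another fitted gene set the groups apart, which follows from Ramp3 itself. Of the 6 ratios that leave Ramp3 out, 1 did, Ramp2 over Calcrl. This ratio was 0.868, 0.855 and 0.753 at high litter size, against 1.28, 1.09 and 1.18 at low litter size. The gap is narrow beside that of Ramp3, and neither gene alone separated the groups. Groups did not overlap for 19.5% of all genes fitted, and the share among ratios of other gene pairs was not computed. The ratio was singled out after its values were seen and is given with no test.

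The genes most like Ramp3 across the 6 libraries were found by Pearson's r of log2 CPM among 12060 other protein-coding genes of at least 5 CPM. The 6 of highest r were Col6a4 (r = 0.993), a collagen VI chain, Cirbp (0.991), a cold-inducible RNA-binding protein, P2ry14 (0.986), a receptor for UDP-glucose, Casp8ap2 (0.984), Ptpn5 (0.984), a tyrosine phosphatase, and Itpa (0.982), which hydrolyses inosine triphosphate. In all 6 the high libraries lay below the low ones. These values are a description, since the 6 libraries fall into 2 separate groups in Ramp3. All genes of a library also share its depth and tissue content, which differ between libraries. By Spearman's rho, 25 genes followed the order of Ramp3 exactly, and 1 of the 6 named stayed among the highest 6. Col6a4 had 133, 305 and 184 CPM at high litter size and 1670, 1267 and 2603 CPM at low litter size, with its highest high library, replicate 3, and its lowest low library, replicate 2, the same as for Ramp3. The genes most like Calcrl by the same measure were Eid1 (0.999), Apba1 (0.998), Maz (0.985), Ier5l (0.985), Zc3hc1 (0.978) and Rnase4 (0.970), and in each of them the groups overlapped. Adm, Ramp1 and Ramp2 were not among those named, nor was Ramp3 for Calcrl or Calcrl for Ramp3. Adm2 and Calcr lay below 5 CPM and could not be named.

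The other genes of the pathway were taken from lists, and over all 17 lists 0 of 135 genes tested passed with edgeR, 40 had an unadjusted p under 0.05 (14.4% of all genes did), DESeq2 called 21 (6.18% of all genes) and limma voom 0. Among the remaining peptide ligands of the family, none was fitted: Calca, which encodes calcitonin and CGRP, had 3.83, 0.499 and 0.251 CPM at high litter size, against 0.106 to 0.404 CPM at low litter size. Calcb, the second CGRP gene, had 0 to 12 counts per library, and Iapp, which encodes amylin, had 0 counts in all 6. High replicate 1 thus held the highest level both of Calca and of Ramp1.

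Genes that finish or remove adrenomedullin gave log2 fold changes in both directions, where the median of all genes was 0.068. Ackr3, a decoy receptor that takes up adrenomedullin, had 28.2, 40.5 and 25.3 CPM at high litter size, against 44.8, 48.8 and 48.4 CPM at low litter size. Every high library lay below every low one, as for 10.8% of all genes. The log2 fold change of Ackr3, -0.60 (SE 0.23), did not pass (edgeR adjusted p = 0.324). Mme, neprilysin, a peptidase that cleaves adrenomedullin, had 277, 181 and 115 CPM at high litter size and 72.8, 122 and 86.7 CPM at low litter size, with a log2 fold change of 1.03 (SE 0.37, edgeR adjusted p = 0.311) that was 0.64 without high replicate 1. Pam, which adds the C-terminal amide that the peptide needs, had a log2 fold change of -0.58 (SE 0.32, edgeR adjusted p = 0.46), or -0.34 without low replicate 2.

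Receptor trafficking and coupling genes (17 tested, median 0.34) held 13 positive and 4 negative log2 fold changes. The 4 of smallest p were Prkar2b, a regulatory subunit of protein kinase A (2.23, SE 0.81), and the adenylyl cyclases Adcy3 (1.11, SE 0.44), Adcy4 (1.02, SE 0.41) and Adcy9 (0.86, SE 0.36), with edgeR adjusted p from 0.309 to 0.352. Prkar2b had 119, 1149 and 254 CPM at high litter size, against 99.3 to 114 CPM at low litter size, and its log2 fold change was 0.78 without high replicate 3. Without that library Adcy3 was 0.69 and Adcy4 0.64, and without high replicate 4 Adcy9 was 0.39. High replicate 3 also had the highest summed level of 8 adipocyte markers, 21451 CPM, against 1927 to 2527 CPM in the other high libraries and 209 to 2731 CPM in the low ones, and the part of fat tissue in these values was not tested. In this list 3 genes, Prkar2b, Adcy3 and Adcy9, had all high libraries above all low ones, as 8.75% of all genes did, and 1 had all below, as 10.8% of all genes did. Crcp, an accessory protein of the CGRP receptor, was that 1 gene, with high libraries (17.7, 12.8 and 17.5 CPM) below the low ones (23.5, 19.5 and 23.5 CPM), and it is named after its values were seen. Of 8 other receptors reported to bind RAMPs, 5 were tested (median 0.25), and Vipr2, a receptor for vasoactive intestinal peptide, had the smallest p (log2 fold change 2.11, SE 0.76, edgeR adjusted p = 0.307). The median of these 5 was -0.050 without high replicate 1 and -0.018 without low replicate 1.

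Adm is a well-known target of hypoxia signalling. The hypoxia-induced genes (15 tested, median -0.09) held 7 positive and 8 negative values. Car9, a carbonic anhydrase induced by hypoxia, had 5.31, 8.23 and 6.27 CPM at high litter size, against 16.3, 22.9 and 12.7 CPM at low litter size. Its groups did not overlap and its log2 fold change of -1.39 (SE 0.33) passed with DESeq2 (adjusted p = 0.0057) but not with edgeR (adjusted p = 0.191). In the other direction, Pfkfb3, a regulator of glycolysis, had 137, 887 and 131 CPM at high litter size, against 54.6, 102 and 75.6 CPM at low litter size. Its groups did not overlap either, and its log2 fold change of 2.32 (SE 0.82) passed with DESeq2 (adjusted p = 0.0385) but not with edgeR (adjusted p = 0.304). Of the 15 genes, 1 had every high library above every low one and 1 had every one below, against 8.75% and 10.8% of all genes. DESeq2 called 1 of the 15 higher and 1 lower, against 2.1% and 4.08% of all genes. Bnip3, a mitochondrial protein of the same response, had 1.80 (SE 0.73) and overlapping groups. Without high replicate 3, the library with the most adipocyte marker RNA, Pfkfb3 was 0.80 and Bnip3 0.95.

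Of 7 genes tested of the oestrogen and progesterone response, 6 shared the direction of Ramp3 (median log2 fold change -1.97, against 0.068 for all genes). The positive one, Ihh, had 12.7, 2.99 and 3.31 CPM at high litter size and 3.29, 0.426 and 3.11 CPM at low litter size. Its log2 fold change was 1.47 (SE 0.89, edgeR adjusted p = 0.503). Areg was not fitted, and had 2.60, 0.125 and 1.51 CPM at high litter size and 0.173, 0.213 and 0.117 CPM at low litter size. At an unadjusted p under 0.05, 5 of the 7 tested genes were lower in the high group, against 7.82% of all genes. DESeq2 called 4 of them lower, against 4.08% of all genes. With edgeR 0 passed. The median was -2.53 to -1.77 with each library left out. Pgr, the progesterone receptor and itself an oestrogen target, had 181, 97.2 and 41.4 CPM at high litter size, against 350, 320 and 476 CPM at low litter size. Greb1, an oestrogen-induced coregulator, had 30.2, 29.4 and 69.3 CPM at high litter size, against 205, 113 and 187 CPM at low litter size (log2 fold change -1.97, SE 0.43, edgeR adjusted p = 0.182). Esr1, the oestrogen receptor alpha, had 316, 162 and 228 CPM at high litter size, against 402, 415 and 361 CPM at low litter size (-0.74, SE 0.30, adjusted p = 0.336). In these 3 genes, and in the mucin Muc1 (-2.96, SE 0.69), every high library lay below every low one, as in Ramp3. Over all genes the share with such groups was 10.8%. The ranks within the groups differed: high replicate 4 had the lowest Ramp3 and Pgr of all libraries, and the highest Greb1 of the high group. The part of hormone response or estrous phase in the Ramp3 difference was not tested.

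**Figure D4:**
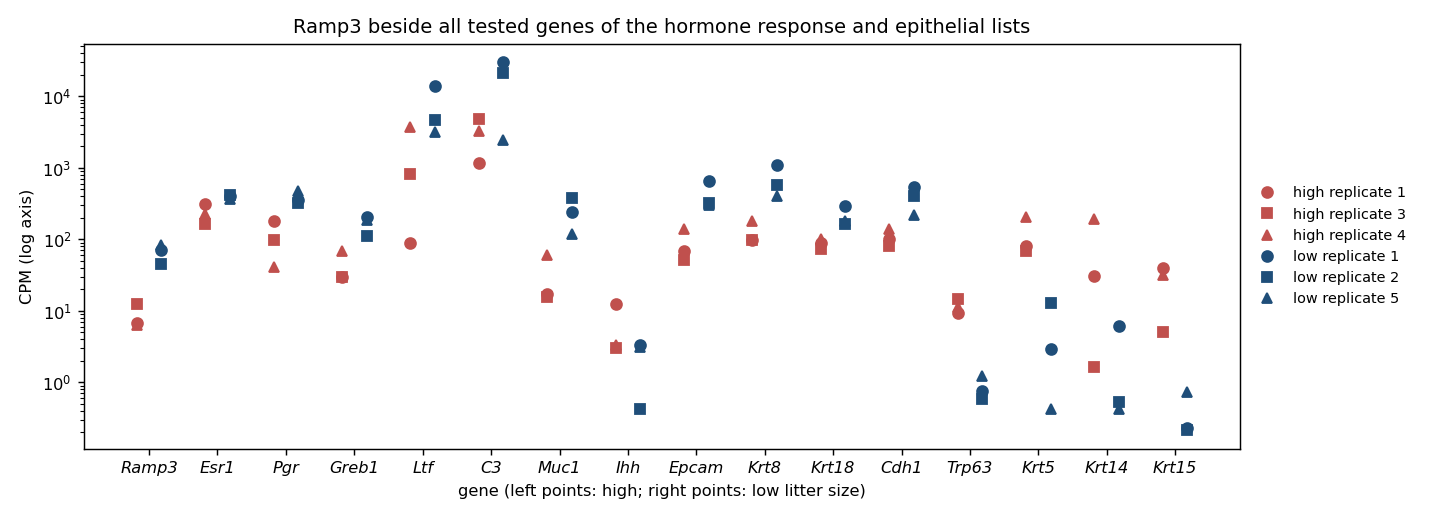
CPM on a log axis of Ramp3, the 7 tested genes of the hormone response list and the 8 of the epithelial list, with the high litter size libraries as left points and the low ones as right points of each gene. High libraries lie below all low ones in Ramp3, Esr1, Pgr, Greb1, Muc1, Epcam, Krt8, Krt18 and Cdh1 and above them in Trp63, Krt5 and Krt15, while Ltf, C3, Ihh and Krt14 overlap.

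Epithelial markers separated the groups in both directions. The 4 simple epithelium genes of the epithelial list, Epcam, Krt8, Krt18 and Cdh1, were lower in every high library than in any low one. Of its 4 stratified epithelium genes, Trp63, Krt5 and Krt15 were higher in every high library than in any low one, and Krt14 overlapped. Groups that did not overlap were found for 10.8% of all genes with the high group lower and 8.75% with it higher. Over all 8 genes 0 passed with edgeR, and 8 had an unadjusted p under 0.05 (4 lower, against 7.82% of all genes, and 4 higher, against 6.56%). DESeq2 called 4 of the 8 lower, against 4.08% of all genes, and 3 higher, against 2.1%. The summed level was 395 to 1003 CPM at high litter size and 1099 to 2614 CPM at low litter size. Krt8, a keratin of simple epithelium, had 96.7, 99.2 and 178 CPM at high litter size, against 1110, 567 and 398 CPM at low litter size. None of the 8 had 0 counts in any library. Low replicate 5 had the highest Ramp3 of all libraries and the lowest Krt8 of its group. The part of epithelial content in the Ramp3 difference was not tested.

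All 14 blood endothelium markers had positive log2 fold changes (median 0.71), 0 passed with edgeR, and 5 had an unadjusted p under 0.05, where 6.56% of all genes were higher at that p. Their summed level was 1633, 1717 and 843 CPM at high litter size, against 651, 892 and 916 CPM at low litter size, so high replicate 4 lay among the low libraries. Where 8.75% of all genes had every high library above every low one, 3 of the 14 did. One of them, Cdh5, the endothelial cadherin, had 211, 177 and 97.2 CPM at high litter size, against 53.8, 78.6 and 89.3 CPM at low litter size (log2 fold change 1.13, SE 0.35, edgeR adjusted p = 0.261). Per 100 CPM of these markers, Ramp3 stood at 0.409, 0.733 and 0.75 CPM at high litter size, against 10.8, 5.05 and 9.08 CPM at low litter size. Calcrl stood at 3.41, 2.50 and 6.18 CPM at high litter size, against 5.08, 5.27 and 6.08 CPM at low litter size, and its groups overlapped. Ramp2 stood at 2.96, 2.13 and 4.66 CPM at high litter size, against 6.51, 5.73 and 7.18 CPM at low litter size. Its groups did not overlap on this scale, but they did in CPM. All 14 markers in the divisor had positive log2 fold changes, which tends to lower these ratios at high litter size. The ratios are given with no test. Lymphatic endothelium markers (6 tested, median 0.28) all had positive values, and their median was -0.12 without high replicate 1. Smooth muscle and pericyte markers (12 tested, median -0.63) held 8 negative and 4 positive values, and 0 passed with edgeR. The 8 negative ones were the smooth muscle genes Acta2, Myh11, Tagln, Cnn1, Des, Actg2, Smtn and Mylk. The 4 positive ones were the pericyte markers Notch3 (1.20, SE 0.37), Rgs5 (0.63, SE 0.30), Cspg4 (0.38, SE 0.46) and Pdgfrb (0.16, SE 0.25). The pooled median therefore does not describe the pericyte markers. It was -1.22 without high replicate 1 and -0.35 without high replicate 3. All 12 together had summed levels of 4313 to 12588 CPM at high litter size and 9397 to 17666 CPM at low litter size.

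Ovarian marker levels differed within both groups, and their part in the Ramp3 difference was not tested. High replicate 4, with 199 CPM of Inha and 67.4 CPM of summed oocyte markers, had the lowest Ramp3 of all 6 libraries, 6.32 CPM. High replicates 1 and 3, with 1.63 and 2.12 CPM of Inha, had 6.68 and 12.6 CPM of Ramp3. Low replicate 2, with 1.22 CPM of Inha and 2.82 CPM of oocyte markers, had 45.1 CPM of Ramp3, the lowest of the low group. Low replicates 1 and 5, with 182 and 109.6 CPM of Inha, had 70.2 and 83.1 CPM of Ramp3. Summed granulosa markers were 24.9, 13.9 and 375 CPM at high litter size and 272, 24.3 and 228 CPM at low litter size.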

How the data were processed

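Poly(A) RNA of 6 ovarian samples was sequenced, and the deposited file holds whole numbers per gene, taken here as the authors' estimated counts. The build GRCm38 and the tools kallisto, Trim Galore and DESeq2 appear in the submitters' processing notes, without their roles. Versions and annotation release are not given in the sources used here, and that the whole numbers are rounded kallisto estimates is an assumption. Gene symbols matched 35869 of 36727 genes, and coordinates and transcript lengths are from GENCODE M21. One listed gene matched more than 1 ID and was left out.

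Genes were kept by filterByExpr (minimum count 10, minimum total 15), TMM-scaled and fitted with edgeR 4.0.16 in R 4.3.3 (quasi-likelihood F test, high minus low, Benjamini-Hochberg over 16455 genes). The SE is the log2 fold change over the root of F. Log2 CPM used a prior count of 2. DESeq2 1.42.0 and limma voom 3.58.1, other scalings and filters, and each library left out were alternatives, and the script was tested on simulated data. Intervals are at 95%.

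The genes and lists were chosen with earlier results of these data known. Named were the 7 genes, up to 4 of each list by smallest p, any gene that passed in a list, and the 6 most like Ramp3 and Calcrl; other genes were named after their values were seen. One gene of the ligand processing list is not reported here.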

Additional observations from a re-analysis of the deposited data

How the results depend on the processing

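The count of genes called was 1 with all 6 libraries, 1017 with DESeq2 (346 higher, 671 lower), 3 with limma voom and 2 with library size alone, and 0 to 1 with each library left out (1 without high replicate 3, 0 without any of the others). Ramp3 ranged from -3.35 to -2.76 with a library left out, where its choice fixes the sign. With a library left out Calcrl ranged from -0.033 to 0.33 and Ramp1 from -0.085 to 1.66, while Adm (-0.41 to -0.045) and Ramp2 (-0.50 to -0.18) kept their sign, and no alternative brought any of these 4 past the threshold. Other scalings and filters moved none of the 5 across 0.

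Of 64 named list genes, 14 turned sign in at least 1 fit without a library, with ranges of -0.57 to 0.089 for Vipr1, -1.81 to 0.98 for Sctr, -0.21 to 1.03 for Gper1, -0.11 to 0.53 for Flt4, -0.12 to 0.89 for Ccl21a, -0.14 to 0.55 for Mmrn1, -5.73 to 0.28 for Inha, -3.98 to 1.38 for Amh, -4.41 to 4.86 for Star, -6.54 to 2.97 for Cyp11a1, -2.38 to 0.62 for Gdf9, -4.83 to 2.62 for Zp2, -3.65 to 1.76 for Nlrp5 and -1.72 to 1.46 for Oosp1. With limma voom Sctr was -0.031, Cyp11a1 -1.24, Zp2 -0.78 and Nlrp5 -1.10. The cause was not tested. With DESeq2, 17 of the 64 passed that did not with edgeR. No paired analysis was possible because replicate number 1 alone occurs in both groups. Adm2 and Calcr were too low to compare at this depth.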
